A study of Mus musculus with 18 samples.

Results

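The 10 genes described here are the NF-kB subunits Rel, Rela, Relb, Nfkb1 and Nfkb2 and the inhibitors Nfkbia, Nfkbib, Nfkbie and Tnfaip3. Nfkbiz, which encodes a nuclear IkB protein, is grouped with the inhibitors here. They were taken by symbol from 23951 gene rows, and all 10 were present in every library. Messenger RNA was measured in naive CD4 T cells of C57BL/6 mice (CD4+CD25- naive cells, separated by FACS), to compare gain and loss of the microRNAs miR-23, miR-27 and miR-24. There were 6 genotypes with 3 libraries each. Cluster Tg cells over-expressed all members of the miR-23 cluster. A single member was over-expressed in miR-23 Tg cells, and likewise in the miR-24 Tg genotype and the miR-27 Tg genotype. DKO cells lacked both the a and the b cluster, and WT cells were the control of the 5 other genotypes. Over-expression and deletion were specific to T cells. The labels name neither the transgene promoter and Cre driver nor the age and sex of the mice. The labels do not say that the 3 libraries of a genotype came from separate animals, so each p-value is set against a spread between libraries that may be technical.

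NF-kB factors are dimers of 5 related proteins. Rela, Rel (c-Rel) and Relb carry activation domains, whereas Nfkb1 and Nfkb2 encode the precursors p105 and p100, which are processed to p50 and p52. In resting T cells the dimers are held in the cytoplasm by the IkB proteins, encoded by Nfkbia (IkB-alpha), Nfkbib (IkB-beta) and Nfkbie (IkB-epsilon). T cell receptor signals activate the IKK kinase, which marks IkB for degradation. Freed dimers switch on target genes, among them Nfkbia, Nfkbiz (the nuclear IkB-zeta) and Tnfaip3 (A20, a ubiquitin-editing enzyme that restrains signalling to IKK). Through Nfkbia and Tnfaip3 the system is a feedback loop.

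No member passed limma's test, at an adjusted p under 0.05, in any of 6 comparisons of genotypes, and the counts at an unadjusted p are given with each. What stood out was the spread between libraries of the same genotype. Tnfaip3, Nfkbia, Nfkbiz and Rel shared the 8 libraries in which they were lowest, and these 8 came from 5 of the 6 genotypes. The number 8 was chosen after the values were seen, and the share of all genes with this set was not counted. Genes outside the family that were picked as nearest in pattern to Tnfaip3 and Nfkbia had the same 8, so the set is not particular to the members.

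The 3 microRNAs are shown because their seeds, bases 2 to 8 in capitals, pair with target mRNAs. Sequences are from RefSeq on GRCm38.p6, where all 3 hairpins lie on the plus strand of chromosome 8. No 2 of them share a seed.
miR-23a-3p: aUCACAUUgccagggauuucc
miR-27a-3p: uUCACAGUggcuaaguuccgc
miR-24-3p: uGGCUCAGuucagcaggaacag

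Matches were sought on the transcript strand of 1 3′ UTR per gene, in the GENCODE annotation of GRCm38. An 8-base match pairs with the whole seed and is followed by A. A 7-base match pairs with the whole seed (AATGTGA for miR-23, ACTGTGA for miR-27, CTGAGCC for miR-24), or with all but its last base and is followed by A. Of the 10 members, 3 held a match, namely Tnfaip3, Rel and Nfkbib. The windows show each match of these 3 genes in capitals.
Tnfaip3, miR-23, chr10:19001046-19001075: ttttcattgttAATGTGAAatggttattta
Tnfaip3, miR-27, chr10:19002655-19002683: ttcacagtggtACTGTGAtccagacccct
Tnfaip3, miR-24, chr10:19002383-19002411: ggcagcagttcCTGAGCCtggctgccagg
Rel, miR-23, chr11:23741836-23741864: tttaaagttacATGTGAAattagcttgat
Rel, miR-27, chr11:23736873-23736901: tatctttgtatACTGTGAtttttgttgat
Nfkbib, miR-27, chr7:28758597-28758626: cctcgatggccACTGTGAAtagcagctctg
Nfkbib, miR-24, chr7:28758765-28758793: ggtcaacagtcCTGAGCCtcagggagtgt

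All these genes lie on the minus strand, and the windows are in the 5′ to 3′ direction of the mRNA. The miR-23 match of Tnfaip3 and the miR-27 match of Nfkbib had 8 bases, and the others had 7. Tnfaip3 (chr10:19000910-19015410) held a match to each of the 3 microRNAs in a 3′ UTR of 1821 bases. Rel (chr11:23736847-23770969) has a 3′ UTR of 5418 bases, far longer than the median of 992 bases over 9851 tested genes. Among those genes, 22.76% held a miR-23 match, 26.6% a miR-27 match and 24.12% a miR-24 match. The counts of 2, 3 and 2 members of 10 are near these shares. Such a match is a description of the letters and does not show a site in use.

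**Figure D1:**
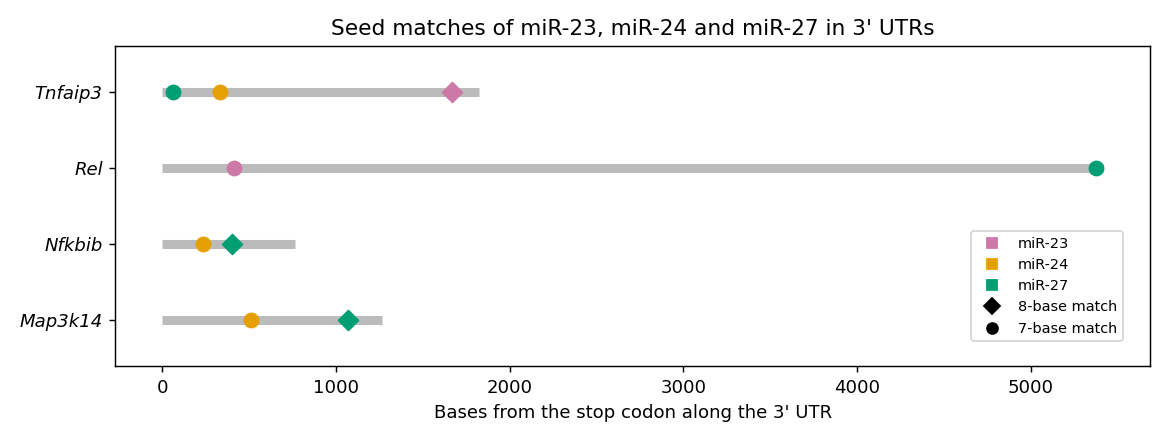
Positions of seed matches of the 3 microRNAs in the 3′ UTRs of Tnfaip3, Rel, Nfkbib and Map3k14, in bases from the stop codon; grey bars are the 3′ UTRs, diamonds 8-base and circles 7-base matches. Tnfaip3 holds 1 match to each microRNA, and the miR-27 match of Rel lies at base 5375 of 5418.

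The promoters of the members were read next, because NF-kB target genes can hold kB sites there. RefSeq promoters, from 250 bases before to 50 after the start, were found for 7 of the 10 members (not Relb, Nfkb1 and Nfkbiz). Both strands were searched for a motif of GGGA, any base and TTTCC, and for the degenerate kB consensus, which includes every match of the other. At least 1 consensus match was found for Nfkbia, Tnfaip3, Rel, Nfkb2 and Nfkbie, and none for Rela and Nfkbib. Nfkb2 has several start sites with a match, and another start site of Tnfaip3 had none. Of all 32851 promoters, 8.459% held the consensus and 0.4109% the other motif. Of 10377 promoters of tested genes it was 10.38% and 0.4144%. These shares are per promoter and not per gene. Nfkb2 and Nfkbie, which held matches too, shared only 5 and 3 of the 8 lowest libraries of Tnfaip3. Whether kB matches go with that pattern was not tested. The windows give the matches of Nfkbia, Tnfaip3 and Rel, picked because they shared their lowest libraries, in capitals and in the direction of the gene, on GRCm38.
Nfkbia, chr12:55492657-55492686: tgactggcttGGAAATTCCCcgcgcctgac
Tnfaip3, chr10:19015403-19015432: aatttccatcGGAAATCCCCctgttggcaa
Tnfaip3, chr10:19015516-19015545: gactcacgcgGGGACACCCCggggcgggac
Rel, chr11:23771042-23771071: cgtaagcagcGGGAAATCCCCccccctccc

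The Nfkbia match began at -29 from the start and was the only one of these that also fitted the stricter motif, on the opposite strand. A match of Nfkb2, not shown, fitted the stricter motif too. The Tnfaip3 matches began at -12 and -125. Rel held 2 overlapping consensus matches from -92. These are matches of letters only, and no binding was measured.

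Levels are RPKM, reads scaled to transcript length and library size, so they can be set side by side between genes. The hairpins served as a check of the genotypes. In cluster Tg replicates 1, 2 and 3, Mir23a had 176364, 64695 and 32829 RPKM and Mir27a 172309, 67414 and 35501 RPKM. Mir24-2 had 70491, 26689 and 16951 RPKM there, so the hairpin levels were uneven within this genotype. Mir23a lay between 64024 and 74236 RPKM in miR-23 Tg and at most at 279.5 RPKM in WT, and Mir27a between 27981 and 234933 RPKM in miR-27 Tg and at most at 193.7 RPKM in WT. In DKO, Mir23a had 0, 0 and 76.1 RPKM and Mir27a 36.3, 39.5 and 0 RPKM, against 279.5, 82.8 and 0 RPKM of Mir23a and 131, 194 and 95.6 RPKM of Mir27a in WT, so that Mir23a in DKO lay within the WT range. Mir24-2 lay between 13888 and 49237 RPKM in miR-24 Tg, was listed at 0 in all 3 DKO libraries and lay between 18.9 and 46.0 RPKM in WT. Cd3e and Cd4, genes that define CD4 T cells, were present in every library, the lowest value being 267 RPKM. Between 10103 and 10615 genes per library reached 1 RPKM, and the depth in reads is unknown. Replicate 3 of miR-27 Tg and replicate 3 of DKO stood apart on the first principal component (24.8% of the variance), at 122.5 and 51.3 against -20.8 to -0.317 for the other 16. In these 2 libraries, 79 ribosomal protein genes averaged 1362 and 952 RPKM, against 242 to 536 RPKM elsewhere. Without them the members' median log2 change was 0.19 in DKO against WT (0.04 with them), -0.15 in cluster Tg against DKO (0.01 with them) and -0.21 in miR-27 Tg against WT (-0.22 with them).

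In WT cells Tnfaip3 and Nfkbia were the most abundant members. Tnfaip3 averaged 538 ± 219 RPKM and Nfkbia 430 ± 134 RPKM (SD, n = 3 here and for every genotype mean), and their ranges overlapped. Nfkb1 averaged 91.6 ± 4.03, Rela 79.6 ± 9.51 and Nfkbiz 78.2 ± 31.7 RPKM in WT. Below them came Nfkb2 at 38.5 ± 7.34, Nfkbib at 28.7 ± 4.04, Relb at 27.6 ± 4.67, Rel at 21.3 ± 4.98 and Nfkbie at 18.7 ± 2.18 RPKM. Neighbours in this order overlapped over the WT libraries, except Nfkbia and Nfkb1, and Nfkb1 and Rela, whose nearest libraries were 88.2 and 87.8 RPKM.

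**Figure D2:**
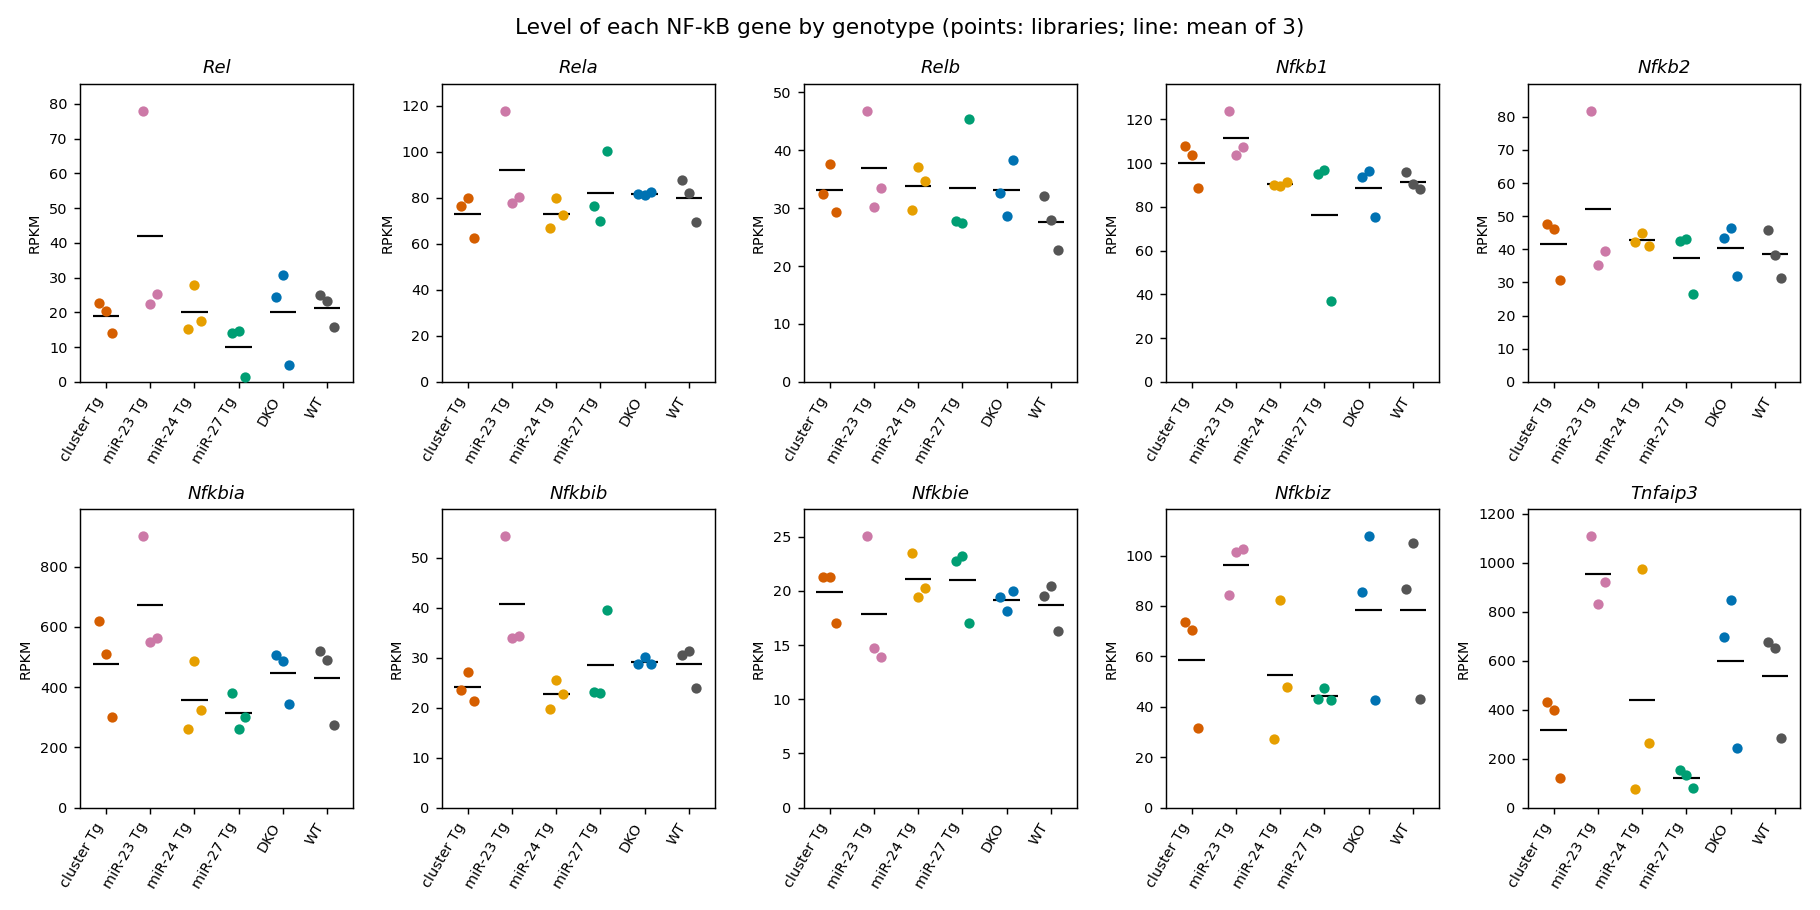
RPKM of each of the 10 NF-kB genes in the 18 libraries, by genotype; points are libraries, and lines are means of 3. Tnfaip3 lies at or below 155 RPKM in all miR-27 Tg libraries, whereas the WT libraries lie between 286 and 678 RPKM, and Rela varies little.

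Rela (p65), the main activating subunit, had 76.6, 79.9 and 62.5 RPKM in cluster Tg libraries, 118, 77.5 and 80.2 in miR-23 Tg libraries and 67.0, 79.7 and 72.3 in miR-24 Tg. It had 76.2, 69.9 and 100.2 RPKM in miR-27 Tg, 81.4, 81.3 and 82.4 in DKO and 87.8, 81.9 and 69.2 in WT. Its highest value was 1.88 times its lowest over the 18 libraries. The interval of the DKO change against WT, -0.32 to 0.41 on the log2 scale, bounds Rela more closely than any other member in that comparison.

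Rel, the subunit induced in activated T cells, had 22.6, 20.3 and 14.1 RPKM in cluster Tg libraries, 78.0, 22.3 and 25.3 in miR-23 Tg libraries and 15.1, 28.0 and 17.4 in miR-24 Tg. It had 14.2, 14.6 and 1.40 RPKM in miR-27 Tg, 24.4, 30.8 and 4.84 in DKO and 25.1, 23.1 and 15.7 in WT. All 3 miR-27 Tg libraries were below all 3 WT libraries, the nearest at 14.6 and 15.7 RPKM. The lowest of all were replicate 3 of miR-27 Tg and that of DKO, the 2 that stood apart, and the highest was miR-23 Tg replicate 1. The change in miR-27 Tg against WT was -1.40 (log2, SE 0.73, 95% interval -2.96 to 0.16, limma adjusted p = 0.248). Without the 2 libraries it was -0.51 (adjusted p = 0.458), and over all alternatives the adjusted p ranged from 0.119 to 0.701. In DKO against WT the Rel change was -0.38 with the 2 libraries and 0.38 without them, not called in either fit.

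Nfkb1 had 108, 104 and 88.6 RPKM in cluster Tg libraries, 124, 104 and 107 in miR-23 Tg libraries and 90.0, 89.8 and 91.4 in miR-24 Tg. It had 95.0, 97.0 and 37.2 RPKM in miR-27 Tg, 93.9, 96.3 and 75.5 in DKO and 96.0, 90.4 and 88.2 in WT. The miR-23 Tg libraries all lay above the WT libraries, by 0.28 on the log2 scale (SE 0.26, adjusted p = 0.965). Without the 2 libraries that stood apart, which are the 2 lowest of Nfkb1, the SE was 0.08 and the adjusted p 0.0679. The Nfkb1 change in miR-27 Tg against WT was -0.38 with them and 0.07 without them, not called in either fit. Nfkb2 (26.5 to 81.8 RPKM) and Relb (22.8 to 46.8 RPKM), the subunits of the non-canonical pathway, were highest in miR-23 Tg replicate 1, and in every comparison their groups overlapped.

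Of the inhibitors, Nfkbia had 618, 509 and 302 RPKM in cluster Tg libraries, 900.5, 551 and 564 in miR-23 Tg libraries and 260.5, 488 and 323 in miR-24 Tg. It had 381, 261 and 301 RPKM in miR-27 Tg, 507, 488 and 345 in DKO and 521, 491 and 276 in WT. The miR-23 Tg libraries were all above the WT libraries, although the gap between the nearest, 551 and 521 RPKM, was small beside the range within WT. The change was 0.66 (log2, SE 0.33, 95% interval -0.06 to 1.38, adjusted p = 0.715), and 0.37 without WT replicate 3.

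Nfkbib, an inhibitor not known for rapid feedback, had 23.6, 27.2 and 21.4 RPKM in cluster Tg libraries, 54.3, 33.9 and 34.4 in miR-23 Tg libraries and 19.8, 25.6 and 22.7 in miR-24 Tg. It had 23.1, 22.9 and 39.6 RPKM in miR-27 Tg, 28.7, 30.1 and 28.7 in DKO and 30.5, 31.4 and 24.0 in WT. In miR-23 Tg every library lay above the WT libraries, at 40.9 ± 11.6 against 28.7 ± 4.04 RPKM. This change, 0.47 (log2, SE 0.21, 95% interval 0.02 to 0.93), had an unadjusted p of 0.0437 and an adjusted p of 0.617 in limma. Without miR-23 Tg replicate 1 it was 0.25 (adjusted p = 1). In cluster Tg every library lay below the DKO libraries, by 0.27 (SE 0.21, adjusted p = 0.503). Nfkbie ranged from 13.9 to 25.0 RPKM, with both ends in miR-23 Tg, and its groups overlapped in every comparison.

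Nfkbiz had 73.8, 70.6 and 31.6 RPKM in cluster Tg libraries, 84.5, 101 and 102 in miR-23 Tg libraries and 27.0, 82.4 and 47.8 in miR-24 Tg. It had 43.1, 47.4 and 42.6 RPKM in miR-27 Tg, 85.5, 108 and 42.6 in DKO and 86.7, 105 and 43.2 in WT. The miR-27 Tg libraries all lay near the lowest WT and DKO libraries, and their range overlapped with WT. Their change against WT was -0.71 (log2, SE 0.44, 95% interval -1.66 to 0.23, adjusted p = 0.316).

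Tnfaip3 had 431, 399 and 119.8 RPKM in cluster Tg libraries, 1107, 831 and 920 in miR-23 Tg libraries and 74.1, 975 and 264 in miR-24 Tg. It had 155, 135 and 78.6 RPKM in miR-27 Tg, 698, 849 and 243 in DKO and 678, 651 and 286 in WT. In order of the means stood miR-27 Tg (123 ± 39.6), cluster Tg (317 ± 171), miR-24 Tg (438 ± 475), WT (538 ± 219), DKO (597 ± 316) and miR-23 Tg (953 ± 141 RPKM), and the ranges of each neighbouring pair overlapped. All 3 miR-27 Tg libraries lay below, and all 3 miR-23 Tg libraries above, the 3 WT libraries.

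The Tnfaip3 change in miR-27 Tg against WT was -2.08 (log2, SE 0.77, 95% interval -3.74 to -0.42), the largest change of any member in any of the 6 comparisons. Its unadjusted p was 0.0178, and after adjustment over 11099 genes it was 0.117 (limma), with a range of 0.0898 to 0.28 over the alternatives. Without the 2 libraries that stood apart the change was -1.79 (adjusted p = 0.158). In miR-23 Tg it was 0.91 (SE 0.77, adjusted p = 0.936), or 0.51 without WT replicate 3, in miR-24 Tg -0.90 (adjusted p = 0.764) and in cluster Tg -0.87 (adjusted p = 0.645). The miR-24 Tg value rests on single libraries, since leaving out 1 of them moved it between -1.83 and 0.02. In DKO against WT it was 0.06 with an interval of -1.60 to 1.72, so that a change of several-fold in either direction was within the error, and without the 2 libraries that stood apart it was 0.62 (adjusted p = 1). In cluster Tg against DKO it was -0.93, and -1.48 without them (adjusted p = 0.211).

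**Figure D3:**
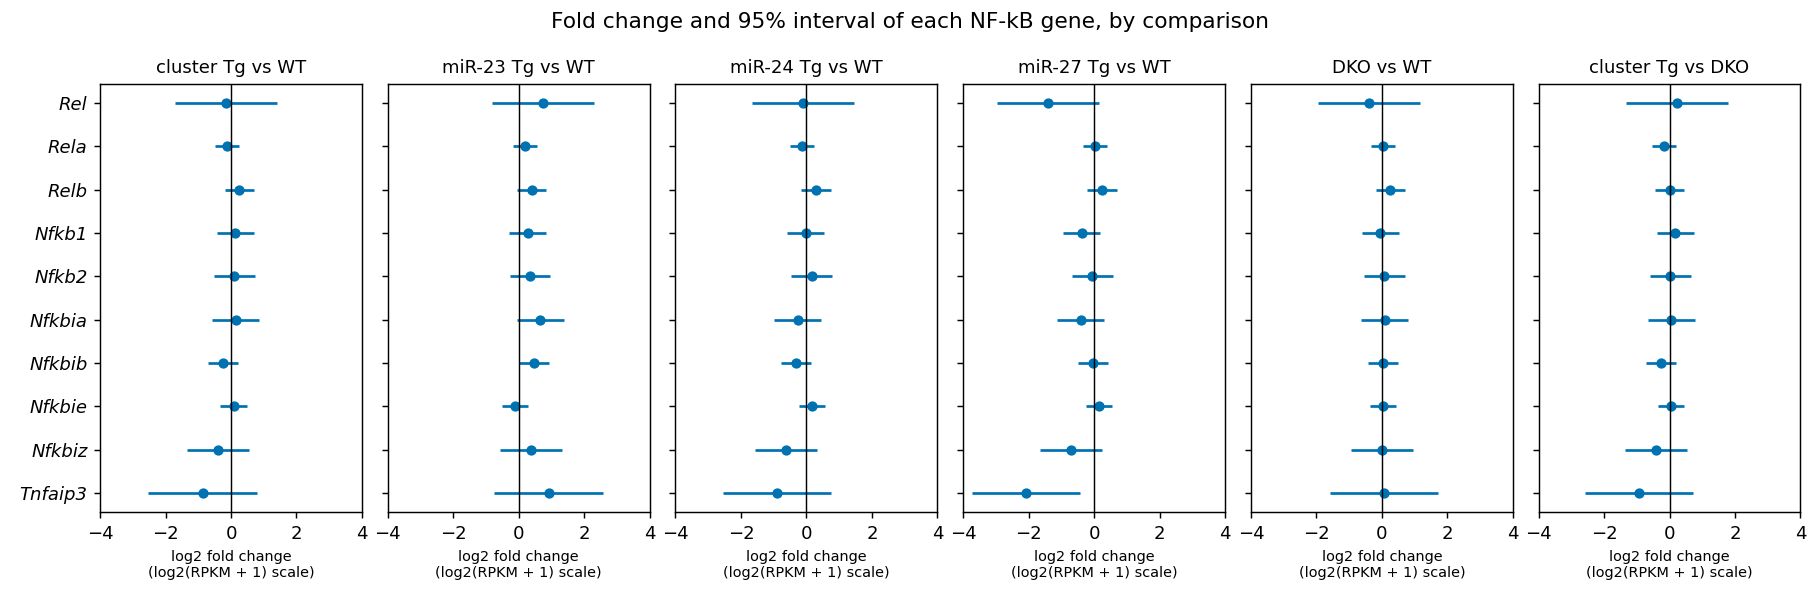
Log2 fold change of each NF-kB gene on the log2(RPKM + 1) scale in the 6 comparisons, the first-named genotype minus the second; points are estimates and bars 95% intervals from limma. The intervals of Tnfaip3 and Rel are the widest, and those of Tnfaip3 in miR-27 Tg and of Nfkbib in miR-23 Tg leave out 0 before adjustment.

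Counts over the 10 members were read against the share of all genes. In cluster Tg against WT, 0 of 10 members were called at an adjusted p under 0.05, against 8.48% of all 11099 genes tested, and 0 had an unadjusted p under 0.05, against 20.1%. Members whose 3 cluster Tg and 3 WT libraries did not overlap numbered 0, against 42.8% of all genes. The median log2 change was -0.02 for the members and 0 for all genes.

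In miR-23 Tg against WT, 0 members were called (0.045% of all genes), and 1, Nfkbib, had an unadjusted p under 0.05 (7.63%). Nfkb1, Nfkbia, Nfkbib and Tnfaip3, 4 of 10 members, were higher in every miR-23 Tg library than in any WT library. Of all genes, 28.9% had groups that did not overlap in either direction. The median change was 0.39 for the members, against 0.01 for all genes. Without miR-23 Tg replicate 1 the members' median was 0.21, with Nfkb2, Nfkbie and Rela below 0, and without WT replicate 3 it was 0.26. Of the miR-23 Tg libraries, replicate 1 was the highest of the 18 for 9 members, all but Nfkbiz. The other pair of miR-23 Tg columns carries the same name in the deposited header, and n = 3 takes them as separate samples.

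In miR-24 Tg against WT, 0 members were called (3.59% of all genes), 0 had an unadjusted p under 0.05 (14.4%) and 0 did not overlap (33.5%). The median change was -0.11 for the members and 0.01 for all genes. In miR-27 Tg against WT, 0 members were called (8.95%), and Tnfaip3 alone, 1 of 10, had an unadjusted p under 0.05 (24.7%). Rel and Tnfaip3, 2 of 10, lay below WT in every miR-27 Tg library, against 27.3% of genes whose groups did not overlap in either direction. The median change was -0.22 for the members and 0.03 for all genes.

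In DKO against WT, 0 members were called (0% of all genes), 0 had an unadjusted p under 0.05 (0.73%) and 0 did not overlap (4.96%). In cluster Tg against DKO, 0 members were called (11.3%) and 0 had an unadjusted p under 0.05 (23.6%). Rela and Nfkbib, 2 of 10, lay lower in every cluster Tg library than in any DKO library. Of all genes, 37.6% had groups that did not overlap in either direction. The test over all 6 genotypes called 0 members (19% of all genes), and 2 of 10, Tnfaip3 and Nfkbib, had an unadjusted p under 0.05 (32.5%). In limma's F test the adjusted p was 0.102 for Tnfaip3 and 0.114 for Nfkbib. The 5 comparisons with WT share the WT libraries and are not independent of each other.

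Within genotypes the members differed widely in how much they varied. The SD between libraries of 1 genotype was 1.02 for Tnfaip3 and 0.96 for Rel on the log2 scale, higher than in 96.5% and 96.4% of all genes tested, whose median was 0.25. Nfkbiz (0.58) and Nfkbia (0.42) followed. Rela, at 0.21, and Nfkbie, at 0.24, varied less than the median gene. From its lowest to its highest library Tnfaip3 spanned 14.9-fold and Nfkbiz 3.98-fold. Rel spanned 55.7-fold over the 18 libraries, 16.1-fold without miR-27 Tg replicate 3 and 5.53-fold without both libraries that stood apart. Without both, the SD was 0.53 for Rel, 0.10 for Nfkb1 (0.34 with them) and 1.00 for Tnfaip3.

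The 8 libraries lowest in Tnfaip3 were, from the lowest up, miR-24 Tg replicate 1, miR-27 Tg replicate 3, cluster Tg replicate 3, miR-27 Tg replicates 2 and 1, DKO replicate 3, miR-24 Tg replicate 3 and WT replicate 3. The same 8 were the lowest in Nfkbia, Nfkbiz and Rel. For the other members, 6 of the 8 were shared for Nfkb1, Nfkbib and Rela, 5 for Nfkb2 and Relb and 3 for Nfkbie. Between the highest of these 8 and the next library there was a step, 286 and 399 RPKM for Tnfaip3, 381 and 488 for Nfkbia, 47.8 and 70.6 for Nfkbiz and 17.4 and 20.3 for Rel. The number 8 was chosen after these values were seen, and no test was made of it. The set holds all 3 miR-27 Tg libraries and none of miR-23 Tg, and replicate 3 of every genotype other than miR-23 Tg.

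**Figure D4:**
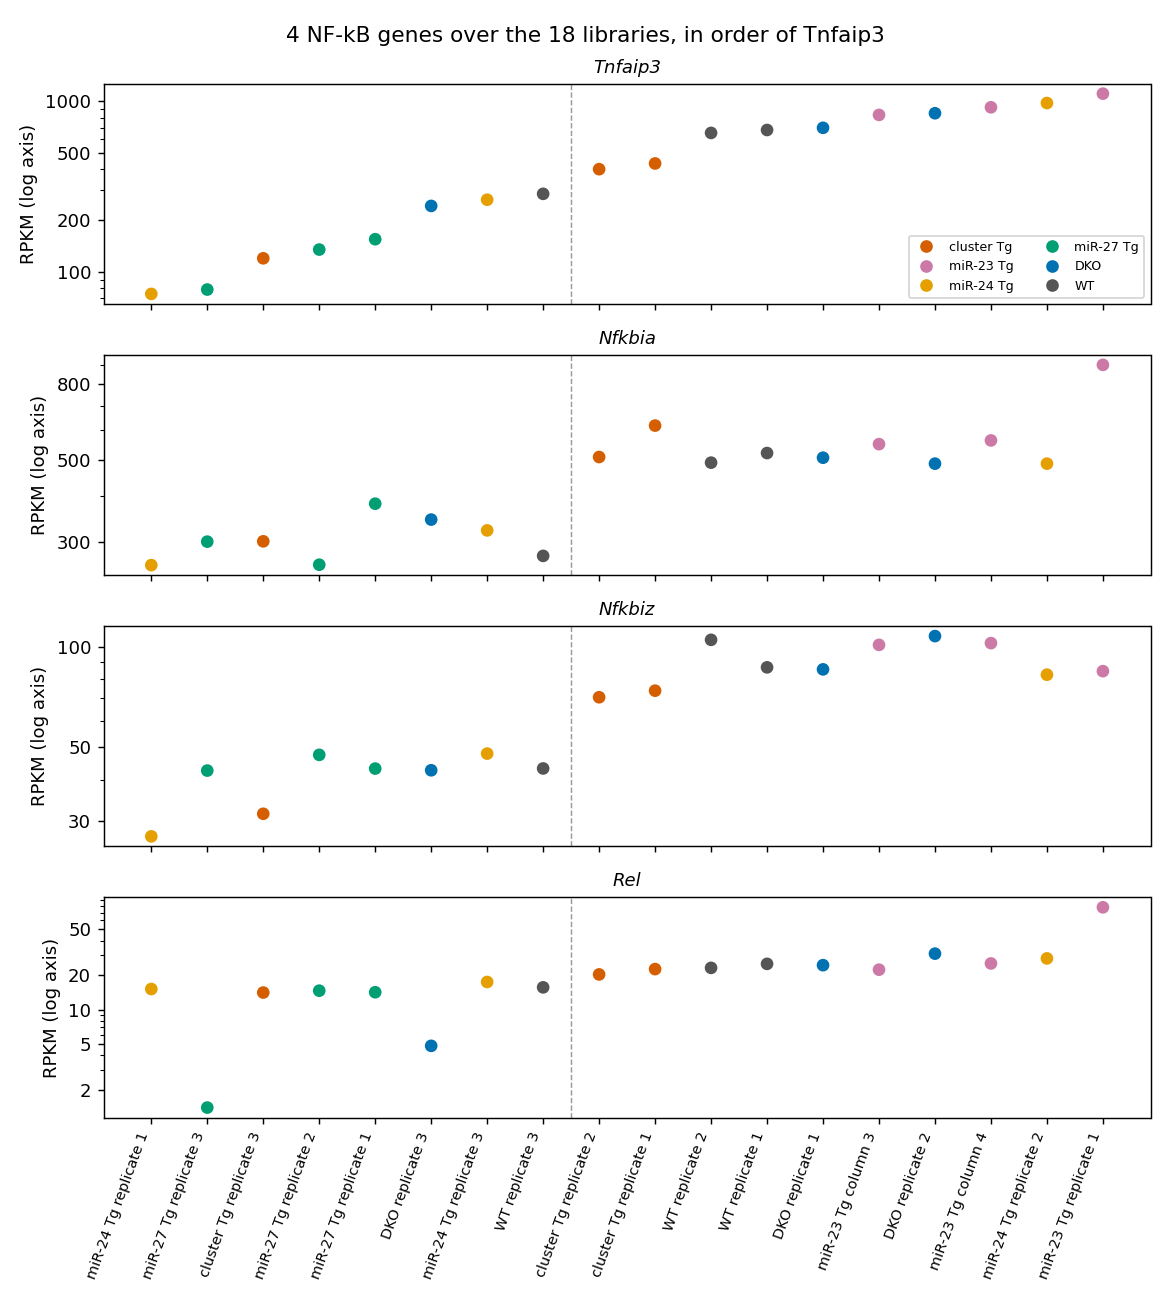
RPKM on log axes of Tnfaip3, Nfkbia, Nfkbiz and Rel in the 18 libraries, ordered by Tnfaip3; colours are genotypes, and the dashed line separates the 8 lowest libraries. All 4 genes lie lower left of the line than right of it, with WT, DKO, cluster Tg and miR-24 Tg libraries on both sides.

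A list of 17 immediate early and heat shock genes, among them Fos, Jun and Dusp1, which also respond to tissue dissociation, varied between these libraries too. Its summed level was 3040 to 4981 RPKM in cluster Tg, 4619 to 5029 in miR-23 Tg, 2108 to 7761 in miR-24 Tg, 2812 to 5066 in miR-27 Tg, 4781 to 5502 in DKO and 3515 to 5395 in WT. Its extremes, miR-24 Tg replicate 1 and replicate 2, are also the lowest and the second highest library of Tnfaip3. Against that order, DKO replicate 3 had 5502 RPKM, the second highest sum, and miR-27 Tg replicate 1 had 5066 RPKM. The part of cell handling in the result was not tested.

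As a description over the 18 libraries, which share genotype and library quality, Nfkbiz and Tnfaip3 were correlated at r = 0.92, Nfkbia and Tnfaip3 at 0.85, Rela and Nfkbib at 0.92 and Rel and Nfkb1 at 0.89. The last pair had a rank correlation of 0.59, and both genes were lowest in the 2 libraries that stood apart. The 3 genes of the whole table nearest to Tnfaip3 in pattern were Dnajb9 (r = 0.97), a chaperone of the endoplasmic reticulum, the immediate early gene Csrnp1 (0.96) and Spty2d1 (0.95). Nearest to Nfkbia were the transcription factor Nfil3 (0.94), the thiamine transporter Slc19a2 (0.94) and the transcription factor Snai1 (0.94). All these genes near Tnfaip3 and Nfkbia had the same 8 lowest libraries as those members. They were picked by r, and the share of all genes with this set was not counted. Nearest to Nfkbib were Amn (0.95), Tprn (0.94) and the Golgi syntaxin Stx5a (0.94), and all 3 were highest in miR-23 Tg replicate 1.

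The remaining pathway was read from 4 lists. Of 20 genes that carry signals to IKK, among them Bcl10, Malt1 and the IKK subunits Chuk, Ikbkb and Ikbkg, all 20 were tested and 0 were called by limma in any of the 6 comparisons. Of all genes, 0% to 11.3% were called. At an unadjusted p under 0.05 there were 2 in cluster Tg (20.1% of all genes), 1 in miR-23 Tg (7.63%), 0 in miR-24 Tg (14.4%), 4 in miR-27 Tg (24.7%) and 0 in DKO (0.73%) against WT, and 3 in cluster Tg against DKO (23.6%). Their median log2 changes lay between -0.11 in miR-27 Tg and 0.05 in miR-23 Tg. Of 10 genes of the non-canonical pathway, 9 were tested. Map3k14 (NIK), the kinase that starts processing of p100, was called lower in cluster Tg, likewise in miR-24 Tg, 1 of 9 in each (8.48% and 3.59% of all genes). In the other genotypes against WT 0 of the 9 were called. At an unadjusted p under 0.05 there were 2 in cluster Tg, 0 in miR-23 Tg, 3 in miR-24 Tg, 1 in miR-27 Tg and 0 in DKO against WT, and 2 in cluster Tg against DKO, beside the shares of all genes just given.

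Map3k14 had 26.6, 33.1 and 25.3 RPKM in cluster Tg libraries, 38.8, 37.8 and 39.4 in miR-23 Tg libraries and 22.5, 32.5 and 26.7 in miR-24 Tg. It had 34.3, 33.9 and 30.3 RPKM in miR-27 Tg, 47.3, 44.5 and 37.6 in DKO and 49.7, 41.1 and 42.9 in WT. No cluster Tg, miR-24 Tg or miR-27 Tg library reached the lowest WT or DKO library. The miR-23 Tg libraries, at most at 39.4 RPKM, also lay below the lowest WT library, at 41.1 RPKM, but within the DKO range. The change against WT was -0.43 in miR-27 Tg (limma adjusted p = 0.0747) and -0.19 in miR-23 Tg (0.856), and neither was called. The fall was -0.64 in cluster Tg against WT (log2, SE 0.14, adjusted p = 0.0103), -0.70 in miR-24 Tg against WT (SE 0.14, adjusted p = 0.0118) and -0.59 in cluster Tg against DKO (SE 0.14, adjusted p = 0.0138). Against WT the cluster Tg call was lost with cluster Tg replicate 1 left out (adjusted p = 0.0594) or WT replicate 1 left out (0.0548). The miR-24 Tg call was lost with miR-24 Tg replicate 1 left out (0.0702) or WT replicate 1 left out (0.065). Over all alternatives the adjusted p lay between 0.00257 and 0.0594 for cluster Tg and between 0.00269 and 0.0702 for miR-24 Tg. The call in cluster Tg against DKO was lost in a fit to those 6 libraries alone (0.0608) and without cluster Tg replicate 1 (0.0694), cluster Tg replicate 3 (0.061) or DKO replicate 1 (0.0623).

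The 3′ UTR of Map3k14, of 1263 bases, holds an 8-base match to miR-27 and a 7-base match to miR-24, here on the minus strand of chromosome 11 of GRCm38 and shown because Map3k14 was called in 3 comparisons.
Map3k14, miR-27, chr11:103219939-103219968: gcattaagttcACTGTGAAtcatttgttgg
Map3k14, miR-24, chr11:103220500-103220528: actagaatgcaCTGAGCCttcaggtcatt

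In miR-27 Tg, likewise in miR-23 Tg, Map3k14 was not called, and its groups did not overlap with WT. The 3′ UTR of Map3k14 holds no match to miR-23. Of tested genes, 26.6% held a miR-27 match and 24.12% a miR-24 match, and matches of the other called genes are not given here. Whether the matches of Map3k14 have a part in its changes was not tested. Traf5, an adaptor of TNF receptors, was lower in cluster Tg (26.7, 30.6 and 35.9 RPKM) than in DKO (45.1, 43.7 and 54.3 RPKM), by -0.61 on the log2 scale (SE 0.15, adjusted p = 0.0191). The call was lost in a fit to those 6 libraries alone (adjusted p = 0.0585) and without cluster Tg replicate 1 (0.108), cluster Tg replicate 2 (0.056) or DKO replicate 3 (0.0805). Of 16 further genes that restrain NF-kB, 15 were tested and 1 was called in any comparison, in miR-27 Tg (8.95% of all genes). At an unadjusted p under 0.05 there were 2 in cluster Tg (20.1% of all genes), 1 in miR-23 Tg (7.63%), 2 in miR-24 Tg (14.4%), 2 in miR-27 Tg (24.7%) and 0 in DKO (0.73%) against WT, and 2 in cluster Tg against DKO (23.6%). Tnip2, which binds A20, was higher in miR-27 Tg (18.5, 18.1 and 18.1 RPKM) than in WT (14.1, 13.4 and 11.6 RPKM), by 0.46 (SE 0.10, adjusted p = 0.012). A fit to the 6 libraries of miR-27 Tg and WT alone did not call it (adjusted p = 0.262), nor did a fit without WT replicate 3 (0.061).

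Of 28 target genes of NF-kB, 25 were tested, among them the members Rel, Nfkb2 and Relb. In cluster Tg against WT, 2 of the 25 rose and 0 fell, beside 8.48% of all genes called, in miR-24 Tg 3 rose and 0 fell (3.59%), and in miR-27 Tg 4 rose and 1 fell (8.95%), while 0 were called in miR-23 Tg (0.045%) and 0 in DKO (0%). Among those that rose in miR-27 Tg, Ccl4 passed the filter only through that genotype. In cluster Tg against DKO, 4 rose and 1 fell (11.3%). At an unadjusted p under 0.05 there were 7 in cluster Tg (20.1% of all genes), 3 in miR-23 Tg (7.63%), 6 in miR-24 Tg (14.4%), 10 in miR-27 Tg (24.7%) and 0 in DKO (0.73%) against WT, and 8 in cluster Tg against DKO (23.6%). The medians over the 25 lay between -0.04 in miR-27 Tg and 0.14 in miR-23 Tg, and the medians of all genes between -0.0029 and 0.03.

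Icam1, the adhesion molecule bound by LFA-1, had 16.2, 14.6 and 12.4 RPKM in cluster Tg libraries, 9.59, 11.1 and 8.57 in miR-27 Tg, 23.7, 20.5 and 21.4 in DKO and 19.0, 27.1 and 18.2 in WT. Its fall in miR-27 Tg against WT was -1.05 (log2, SE 0.17, adjusted p = 0.00221), and it was also lower in cluster Tg than in DKO, by -0.58 (SE 0.17, adjusted p = 0.0439), a call lost under 8 of 13 alternatives. Cd83, a surface protein of activated lymphocytes, had 8.06, 3.52 and 3.66 RPKM in miR-24 Tg, 2.26, 3.22 and 5.95 in miR-27 Tg and 0.796, 0.73 and 1.08 in WT. It rose by 1.63 in miR-24 Tg (SE 0.28, adjusted p = 0.00445) and by 1.30 in miR-27 Tg (SE 0.28, adjusted p = 0.0101).

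Ccl5, a chemokine of effector cells, rose by 3.18 in cluster Tg, 3.71 in miR-24 Tg and 3.61 in miR-27 Tg against WT on the log2 scale (SE 0.59 each), with adjusted p-values of 0.00361, 0.00286 and 0.00197. It rose by 3.38 in cluster Tg against DKO. Ccl4 (1.35) and the survival gene Bcl2l1 (0.89, adjusted p = 0.041) rose in miR-27 Tg. Ccl4 reached 1 RPKM only in the miR-27 Tg libraries (1.08, 1.37 and 3.81 RPKM), against at most 0.838 RPKM in any other library. It passed the filter only through the group where it was called, so its call is no independent result. The Bcl2l1 change was 0.48 without miR-27 Tg replicate 3, and its call was lost under 6 of 13 alternatives. The IL-2 receptor chain Il2ra had 7.97, 2.2 and 1.71 RPKM in miR-24 Tg and 0.522, 1.05 and 0.847 RPKM in WT. It rose by 1.25 (adjusted p = 0.0452), by 0.72 without miR-24 Tg replicate 1, and lost the call under 7 of 13 alternatives, with a highest adjusted p of 0.171. Bcl2a1d rose by 0.77 in cluster Tg against WT (adjusted p = 0.037), a call lost under 8 of 13 alternatives. In cluster Tg against DKO, Bcl2a1d rose by 1.00 (adjusted p = 0.0076), Bcl2a1b by 0.99 (0.0467) and Ier3 by 1.38 (0.0414), and the Bcl2a1b and Ier3 calls were lost under 9 and 8 of 13 alternatives. The Bcl2a1 genes are near-identical copies, so the split of reads between them is uncertain. None of the miR-27 Tg calls in this list held in a fit to the 6 libraries of miR-27 Tg and WT alone, where the adjusted p was 0.134 for Icam1, 0.176 for Cd83, 0.133 for Ccl5, 0.203 for Ccl4 and 0.451 for Bcl2l1.

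**Figure D5:**
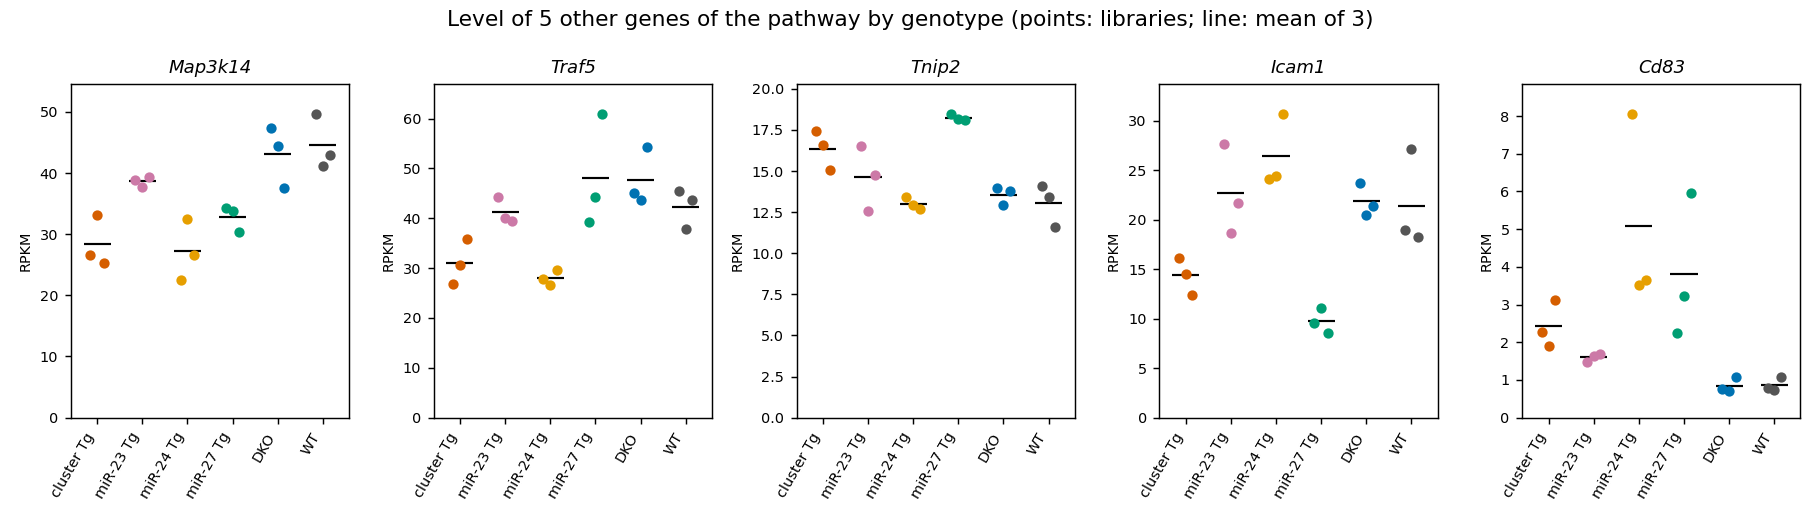
RPKM of Map3k14, Traf5, Tnip2, Icam1 and Cd83 in the 18 libraries by genotype; points are libraries, and lines are means of 3. Map3k14 is lower in cluster Tg and miR-24 Tg libraries than in DKO and WT, and Icam1 in miR-27 Tg lies below every other genotype.

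Markers of other cells were read as well, and the lists differed in the genotypes where genes were called. The summed level of 13 measured B cell markers was 80.1 to 154 RPKM in cluster Tg, 28.2 to 99.7 in miR-23 Tg, 109 to 431 in miR-24 Tg, 147 to 825 in miR-27 Tg, 25.5 to 37.4 in DKO and 18.3 to 29.4 in WT, and none of the 13 was at 0 in any library. Of the 13, 9 to 11 reached 1 RPKM in cluster Tg libraries, 10 to 12 in miR-24 Tg, 11 to 12 in miR-27 Tg and 4 in WT. Of the 11 that were tested, 1 was called higher in cluster Tg, 7 in miR-24 Tg and 11 in miR-27 Tg. The tested markers below 1 RPKM in WT passed the filter through other genotypes. The 7 CD8 T cell markers summed to 79.3 to 139 RPKM in cluster Tg, 129 to 133 in miR-24 Tg, 53.8 to 172 in miR-27 Tg and 75.7 to 87.4 in WT, where Klrc1 was listed at 0. Cd8a, which defines them, had 3.29 to 11.2 RPKM in cluster Tg, 2.90 to 4.85 in miR-24 Tg, 3.76 to 8.99 in miR-27 Tg and 0.211 to 0.530 in WT. Of 5 tested, 3 were called higher and 1 lower in cluster Tg, likewise in miR-27 Tg, and 2 higher in miR-24 Tg. The 6 NK cell markers summed to 8.47 to 11.8 RPKM in cluster Tg, 37.7 to 50.1 in miR-24 Tg, 8.50 to 12.6 in miR-27 Tg and 9.77 to 14.6 in WT, where Klre1 was listed at 0 in all 3 libraries and Klra8 in 2. Of 2 tested, both were called higher in miR-24 Tg. At least 2 of the 6 reached 1 RPKM only in miR-24 Tg libraries and miR-27 Tg replicate 1, and 1 did in each other library. The filter thus leaned on miR-24 Tg.

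The 8 myeloid markers measured summed to 16.1 to 28.8 RPKM in cluster Tg, 11.7 to 29.9 in miR-24 Tg, 27.2 to 36.6 in miR-27 Tg, 2.83 to 3.62 in DKO and 2.86 to 3.91 in WT, where Cd14 and Lyz1 were listed at 0. Of 4 tested, 2 were called higher in cluster Tg, 1 in miR-24 Tg and 3 in miR-27 Tg. The 5 neutrophil markers summed to 0.083 to 0.565 RPKM in cluster Tg, 2.49 to 98.2 in miR-24 Tg, 10.6 to 566 in miR-27 Tg and 0 to 0.185 in WT, where S100a8 was listed at 0 in all 3 libraries. Both that were tested were called higher in miR-27 Tg. In WT, DKO and cluster Tg libraries 0 of the 5 reached 1 RPKM. Both thus passed the filter through the other genotypes, miR-27 Tg among them. Counts of called markers that passed the filter through the genotypes where they were high follow in part from the filter. The 5 erythroid markers summed to 5.80 to 79.5 RPKM in miR-24 Tg, 3.36 to 523 in miR-27 Tg and 0.854 to 26.0 in WT. The 6 regulatory T cell markers, Il2ra among them, summed to 120 to 164 RPKM in cluster Tg and 121 to 191 in miR-24 Tg. They summed to 81.7 to 201 RPKM in miR-27 Tg, 91.8 to 108 in DKO and 91.9 to 112 in WT. Of 6 tested, 1 was called higher in cluster Tg, 2 in miR-24 Tg and 0 in miR-27 Tg against WT, and 2 in cluster Tg against DKO. In bulk RNA, more cells of a type and more RNA per cell cannot be told apart, and the part of other cells in these changes and in the values of Tnfaip3 was not tested.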

How the data were processed

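The authors deposited 1 table of RPKM values for 23953 gene rows and 18 libraries, with no read counts. Per the labels' protocols, total RNA with small RNAs was extracted with a miRNeasy kit, and TruSeq RNA libraries were sequenced on an Illumina HiSeq. The submitters' processing notes list HOMER, STAR 2.2.0c and the build mm9. What each was used for, the gene models, the use of strand and the handling of shared reads are not stated there, so values of near-identical or overlapping genes, the hairpins included, are uncertain. The repeated rows of 2 symbols were dropped. In the header, 2 miR-23 Tg columns carry the same name. They were used without a replicate number, and 0 of 10118 genes that reached 1 RPKM in both had the same value.

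Genes that reached 1 RPKM in 3 or more libraries were kept (11099, all 10 members included). The linear model of limma 3.58.1 (R 4.3.3), with trended empirical Bayes variances, used log2(RPKM + 1) of all 18 libraries with genotype as the only term. Tests were two-sided, p-values were adjusted by Benjamini-Hochberg over all genes, and a gene was called at an adjusted p under 0.05. Fold changes are log2 values with that pseudocount of 1, so changes of low genes are understated. The fit was tested on simulated data. An exact permutation test of 3 libraries against 3 cannot go below 0.1. Alternatives were another pseudocount (0.1), no filter, quantile normalisation, median-ratio scaling, a replicate block, only the 6 libraries compared, each library left out, and, added after seeing the data, both libraries that stood apart left out. The named genes are all members, up to 6 called genes of each pathway list and comparison, and for the 3 members with the smallest p over all genotypes the 3 genes of highest r. Members, lists and rules were chosen with earlier results of these data known. Sequences are from RefSeq and GENCODE tables of GRCm38 and were matched by symbol or transcript. Some single genes are not reported here.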

Additional observations from a re-analysis of the deposited data

How the results depend on the processing

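Members' fold changes and tests were recomputed 770 times over the alternatives. The count of members called stayed at 0 in each of the 6 comparisons under every alternative run, and 66 fold changes had a sign other than the reported one, none with a call. In the test over all genotypes the count of members called ranged from 0 to 1 when single libraries were left out. It was 1 without miR-24 Tg replicate 1 (Tnfaip3, adjusted p = 0.044), without miR-24 Tg replicate 2 (Tnfaip3, 0.0226) and without miR-27 Tg replicate 3 (Nfkbib, 0.0152), and also 1 without both libraries that stood apart (Nfkbib, 0.0145), an alternative chosen after seeing the data. Over all alternatives this adjusted p ranged from 0.0226 to 0.204 for Tnfaip3 and from 0.0145 to 0.32 for Nfkbib.

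Of the recomputed values of called pathway genes, 191 kept the call and 65 lost it, with no change of direction. Ccl5 in cluster Tg (against WT, likewise DKO), and both Ccl5 and Cd83 in miR-24 Tg, kept it under all 13 alternatives, whereas Bcl2a1d in cluster Tg, Il2ra in miR-24 Tg, and Icam1, Ier3 and Bcl2a1b in cluster Tg against DKO lost it under 7 to 9 of the 13. The cause was not tested.

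The number of all genes called depended on the libraries. With only the 6 libraries compared it was 2302 in cluster Tg, 14 in miR-23 Tg, 851 in miR-24 Tg, 43 in miR-27 Tg and 4 in DKO against WT, compared with 941, 5, 398, 993 and 0 in the fit to all 18. Without the 2 libraries that stood apart it was 3214, 438, 1933, 2191 and 2, and 3050 in cluster Tg against DKO (1259 in the fit to all 18). With 1 library left out it ranged from 406 to 699 in cluster Tg, 175 to 300 in miR-24 Tg, 533 to 1201 in miR-27 Tg and 550 to 888 in cluster Tg against DKO, and was 1 in miR-23 Tg. Quantile normalisation gave 2 in miR-23 Tg. In DKO against WT, limma called 0 of 11099 genes, and 81 had an unadjusted p under 0.05.

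The labels do not say that replicate numbers pair libraries. Over all genes tested, the deviations of same-numbered libraries from their genotype means correlated between -0.093 and 0.181, and in no comparison were all 3 above 0.1. For replicate 3 the correlations were all positive, between 0.084 and 0.181. A batch shared by libraries of the same number was not tested. With a replicate block, 0 members were called in any comparison, and 837, 331, 851 and 0 genes were called in cluster Tg, miR-24 Tg, miR-27 Tg and DKO against WT. The block could not be fitted for miR-23 Tg, where 1 column carries a number of its own. Absolute depth is unknown, and the wide intervals of Tnfaip3 and Rel limit what 3 libraries a genotype can show.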
